A study of Mus musculus with 6 samples.

Results

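Chemokines are small secreted proteins that steer migrating cells, and their receptors are G protein-coupled receptors on the cells that respond. The family was taken as every gene whose name in the array files is Ccl, Cxcl, Ccr or Cxcr followed by a number, together with Cx3cl1. The rule gave 51 genes, 34 ligands and 17 receptors, of 35077 genes on the array, measured by 66 probes on 75 spots, and 11 of the genes had several probes. Of the 51, 19 were tested (15 ligands and 4 receptors) of 18003 genes tested in all, since testing required a probe whose signal was well above background in every array of 1 layer or both.

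The samples were intermediate and outer interzone of mouse embryos at 15.5 days of gestation, 3 of each, and each replicate was 1 embryo. The interzone is the band of condensed mesenchyme at which a synovial joint forms. Its outer layers border the cartilage of the future bones, and the intermediate layer lies between them. The labels give no strain, genotype or treatment, do not say which joint was taken, and do not say whether an intermediate and an outer sample came from the same embryo. The sources used here do not give the method by which the layers were parted.

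Ligands are divided by the spacing of their first cysteines into CC, CXC and CX3C types, and they act through receptors coupled to Gi proteins. Many CC ligands draw monocytes, macrophages, eosinophils or lymphocytes into tissue. Others are made steadily by connective tissue, among them Cxcl12, which holds Cxcr4-bearing progenitors and blood cells near stromal cells and guides vessels in the embryonic limb. Levels below are log2 values of the processed signal relative to each array's own 75th percentile (so that 0 is that percentile), with SD over n = 3 arrays. Differences are log2, outer minus intermediate, with SE and 95% interval from limma, and adjusted p-values are Benjamini-Hochberg values from limma over all 18003 genes, called at 0.05.

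The 75th percentile of processed signal ranged from 144 to 344 over the intermediate arrays and from 47.4 to 290 over the outer arrays. Outer replicate 1 had the dimmest array, where 35.6% of spots were well above background, while the other 5 arrays had 45.1% to 53.4%. Outer replicate 1 shared a slide with all intermediate arrays, and outer replicates 2 and 3 were together on the second slide. Over all genes 4.05% were called, 447 lower and 282 higher in the outer interzone, and the median difference was 0.10. The interzone list (Gdf5, Wnt9a, Osr1 and 5 others) had 8 of 8 members tested, of which 0 were called lower (0 at unadjusted p under 0.05) and 2 higher (Wnt4 and Erg), and Gdf5 stood at 5.69 ± 0.89 in intermediate and at 5.69 ± 1.07 in outer samples. Of 9 cartilage markers 7 were called higher in the outer interzone, by 3.19 with SE 0.36 for Col2a1, the main cartilage collagen (limma adjusted p = 0.011).

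The chemokine genes that passed the test were all lower in the outer interzone. Of the 19 tested members, limma called 8 lower, against 2.48% of all genes, and they were Ccl9, Ccl2, Ccl12, Ccl7, Ccl6, Ccr2, Ccl24 and Cxcl12. It called 0 higher, against 1.57% of all genes, with 1 (Cxcl11) higher at unadjusted p under 0.05. The median difference of the 19 was -1.31, and 13 differences were negative. The 3 outer values lay below all 3 intermediate values for 11 members, against 11.4% of all genes, and above them for 1, against 15.6% of all genes. In bulk samples such as these, fewer cells of a type and less RNA per cell cannot be told apart.

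The filter on signal shapes these counts. Of the 19 members, 12 were tested through the intermediate arrays alone, 0 through the outer arrays alone and 7 were well above background on all 6 arrays. A gene that enters through the group in which it is bright tends to be lower in the other. Of the 12, 7 were called lower, against 8.40% of the 3096 genes that entered in the same way. Of the 7 measured on every array, 1 (Cxcl12) was called lower, against 1.27% of 14775 such genes. All 19 were well above background on each intermediate array, but only 7 on outer replicate 1, 17 on outer replicate 2 and 15 on outer replicate 3.

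**Figure D1:**
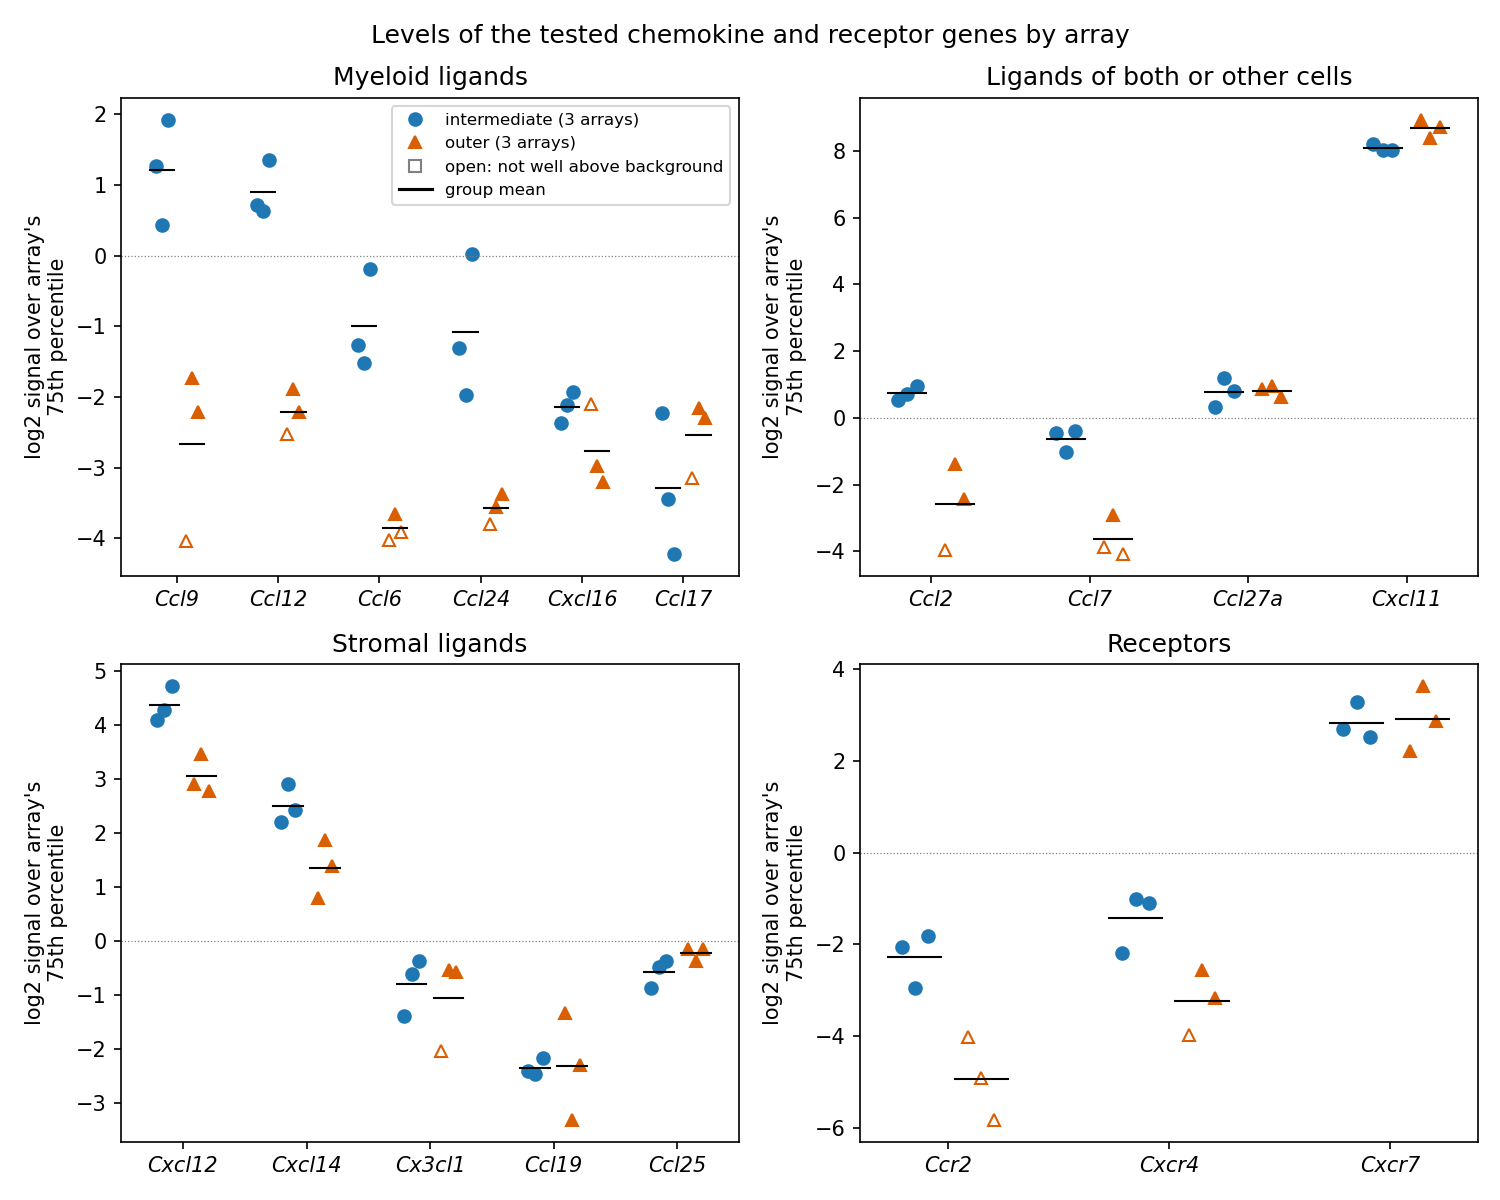
Level of the tested members described here on each of the 6 arrays, as log2 processed signal over the 75th percentile of the array, by role (circles intermediate, triangles outer); filled symbols were well above background on that array and open symbols were not, and horizontal bars are group means. The outer points of Ccl9, Ccl2, Ccl12, Ccl7 and Ccl6 lie below all intermediate points, while those of Ccl27a, Cxcr7 and Cx3cl1 overlap with them.

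Most tested ligands known chiefly from macrophages and other myeloid cells fell in the outer interzone. On this list 6 of 11 genes were tested, all through the intermediate arrays alone. Of these, 4 fell (Ccl9, Ccl12, Ccl6 and Ccl24), against 8.40% of all genes that entered in the same way. Cxcl16 and Ccl17 were not called. The median difference of the 6 was -2.68, and the range ran from -3.86 to 0.76.

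Ccl9, a ligand of Ccr1 made by macrophages and osteoclasts, had levels of 1.27, 0.43 and 1.92 on the intermediate arrays and -4.04, -1.73 and -2.21 on the outer arrays. The groups were apart, and outer replicate 1, where the probe was not well above background, was the lowest of the 6. The means of 1.20 ± 0.75 and -2.66 ± 1.22 differed by -3.86 (SE 0.64, 95% interval -5.37 to -2.35, limma adjusted p = 0.0256). The difference was -3.17 without outer replicate 1. By a bound on the outer level, it was at least 8.69-fold lower in the outer interzone (-3.12 in log2). For this bound each outer array enters with its lowest signal that counts as well above background, or with the probe's own signal if that is higher. The bound allows for signal near background only. It leaves out the spread between arrays and holds for this processing, and another processing, given below, made the difference of Ccl9 -2.50.

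Ccl12, a mouse ligand of Ccr2, stood at 0.72, 0.63 and 1.35 on the intermediate and at -2.53, -1.89 and -2.21 on the outer arrays. It had the smallest adjusted p among the members, and its replicates were tightly grouped in both layers. The difference between 0.90 ± 0.39 and -2.21 ± 0.32 was -3.11 (SE 0.26, 95% interval -3.74 to -2.48, limma adjusted p = 0.00653), or at least 7.31-fold by the same bound. Of the outer arrays, replicates 2 and 3 were well above background for its probe.

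Ccl6, a further Ccr1 ligand of mouse macrophages, had levels of -1.27, -1.52 and -0.19 on the intermediate and -4.02, -3.65 and -3.91 on the outer arrays. Only outer replicate 2 was well above background in the outer group. The measured difference was -2.86 (SE 0.35, limma adjusted p = 0.0137), and by the bound the level was at least 4.13-fold lower there.

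Ccl24, an eosinophil attractant that acts on Ccr3 and is made by alternatively activated macrophages, had levels of -1.31, -1.97 and 0.02 on the intermediate and -3.80, -3.55 and -3.37 on the outer arrays. Intermediate replicate 3 was the highest, and no outer array reached the lowest intermediate one. The difference was -2.49 (SE 0.48, 95% interval -3.62 to -1.37, limma adjusted p = 0.0401), at least 3.54-fold by the bound, with 2 of 3 outer arrays well above background. The call was lost without intermediate replicate 1 (-2.60, adjusted p = 0.107), intermediate replicate 3 (-1.94, 0.0638) or any single outer replicate (-2.59 to -2.38, 0.0574 to 0.111), but not without intermediate replicate 2. It was lost with slide as a block too (-2.72, limma adjusted p = 0.0661).

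Both other tested genes of this list had groups that overlapped. Cxcl16, a transmembrane ligand that also binds oxidised lipoprotein, had levels of -2.37, -2.11 and -1.93 on the intermediate and -2.10, -2.98 and -3.20 on the outer arrays, a difference of -0.62 (95% interval -1.35 to 0.11, limma adjusted p = 0.303). Ccl17, a dendritic cell ligand of Ccr4, had levels of -2.22, -3.44 and -4.22 on the intermediate and -3.15, -2.15 and -2.30 on the outer arrays. Its difference was 0.76 (95% interval -0.47 to 1.99, limma adjusted p = 0.444), the only positive one on the list, and its probe was well above background on 5 of the 6 arrays.

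The next 4 ligands are made by both immune and connective tissue cells or by other cells. Of the 4, 2 fell, against 2.48% of all genes. Those that fell, Ccl2 and Ccl7, were tested through the intermediate arrays alone, where 8.40% of all such genes were called lower. Ccl2, the main monocyte attractant and a ligand of Ccr2, had levels of 0.54, 0.71 and 0.96 on the intermediate and -3.97, -1.39 and -2.43 on the outer arrays. The intermediate arrays were within a narrow band, while the outer arrays were widely spread around a much lower mean (0.74 ± 0.21 against -2.60 ± 1.30). The difference was -3.33 (SE 0.59, 95% interval -4.74 to -1.93, limma adjusted p = 0.0322), at least 6.10-fold by the bound. It was -2.64 without outer replicate 1, the one array on which Ccl2 was not well above background.

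Ccl7, the third Ccr2 ligand on the array with a tested probe, had levels of -0.47, -1.02 and -0.41 on the intermediate and -3.86, -2.92 and -4.08 on the outer arrays. All outer values were low, and only outer replicate 2 was well above background. The measured difference was -2.98 (SE 0.34, 95% interval -3.79 to -2.18, limma adjusted p = 0.011), and by the bound the level was at least 4.47-fold lower in the outer interzone.

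Ccl27a and Cxcl11, the other two, were measured on all 6 arrays and were not called. Ccl27a, a ligand of Ccr10 known from skin, had levels of 0.32, 1.20 and 0.80 on the intermediate and 0.87, 0.96 and 0.61 on the outer arrays, and the groups overlapped with a difference of 0.04 (95% interval -0.56 to 0.64, limma adjusted p = 0.945). Its 3 tested probes gave 0.04, 0.20 and 0.47, and the mouse genome holds near-identical copies of this gene, so its values may mix copies.

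Cxcl11, a ligand of Cxcr3 and Cxcr7, was the one member whose outer values all lay above the intermediate ones. Its levels were 8.21, 8.03 and 8.01 on the intermediate and 8.93, 8.39 and 8.72 on the outer arrays, a difference of 0.59 (SE 0.20, 95% interval 0.13 to 1.06, limma adjusted p = 0.149). A second probe had 2.18, 1.78 and 1.94 against 3.12, 2.48 and 2.66, a difference of 0.79. The accession of the probe had no match in the later RefSeq table used for names, so that what this probe measures was not checked further.

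Among the ligands known chiefly from fibroblasts, endothelium and epithelium, Cxcl12 fell in the outer interzone. Of the 9 stromal ligands on the array 5 were tested, 1 fell, against 2.48% of all genes, and 4 were not called. The median difference was -0.26, with a range from -1.31 to 0.35. The same median was -2.68 for the 6 myeloid ligands. Every one of these 6 was tested through the intermediate arrays alone, where the median of all such genes was -0.18, while 4 of the 5 stromal ligands were well above background on all 6 arrays, where the median of all such genes was 0.12. The lists thus passed the filter in different ways, and the difference between them was not tested. With slide as a block the stromal median was -1.24, and this fit rests on outer replicate 1 as the only outer array beside intermediate arrays.

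Cxcl12 was the only called member measured on all 6 arrays. Its levels were 4.10, 4.29 and 4.73 on the intermediate and 2.92, 3.47 and 2.79 on the outer arrays. No outer array reached the lowest intermediate one. The means of 4.37 ± 0.32 and 3.06 ± 0.36 differed by -1.31 (SE 0.26, 95% interval -1.92 to -0.71), 2.49-fold lower in the outer interzone (limma adjusted p = 0.0431). A second probe, at chr6:117125026-117125085 (mm9), gave 1.82, 2.27 and 2.78 against -0.13, 0.92 and 0.36, a difference of -1.90 in the same direction. The call of Cxcl12 was lost with a slide block (-1.45, adjusted p = 0.0689) and without any single array other than outer replicate 2 (-1.45 to -1.14, adjusted p from 0.0862 to 0.153).

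Cxcl14, a CXC ligand of epithelium and mesenchyme, was not called although its groups were apart. It had levels of 2.20, 2.91 and 2.43 on the intermediate and 0.80, 1.88 and 1.40 on the outer arrays. Each outer replicate lay below the intermediate replicate of the same number. The difference was -1.15 (SE 0.32, 95% interval -1.91 to -0.40, limma adjusted p = 0.104). With each array scaled to its median it was called (-1.59, limma adjusted p = 0.0485), but not with the authors' deposited values (-1.54, 0.0537). It was called with a block for the replicate number (adjusted p = 0.031), with slide as a block (-1.71, 0.0406) and without outer replicate 2 (-1.41, 0.0494).

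The remaining stromal ligands had overlapping groups. Cx3cl1, the membrane-bound ligand of Cx3cr1, had levels of -1.39, -0.61 and -0.37 on the intermediate and -2.03, -0.54 and -0.57 on the outer arrays, a difference of -0.26 (95% interval -1.35 to 0.84, limma adjusted p = 0.788). Ccl25, a thymic and gut ligand of Ccr9, had levels of -0.87, -0.48 and -0.37 against -0.15, -0.37 and -0.14, a difference of 0.35 (95% interval -0.11 to 0.81, limma adjusted p = 0.348). In Ccl25 the highest intermediate value equalled the lowest outer one at this rounding. Ccl19, a lymph node ligand of Ccr7, had levels of -2.40, -2.47 and -2.16 on the intermediate and -1.34, -3.32 and -2.30 on the outer arrays, a difference of 0.03 (95% interval -1.06 to 1.12, limma adjusted p = 0.977). The outer arrays lay on both sides of the intermediate ones. Its probes disagreed in sign, the other tested probe giving -0.50 and a probe that was not tested -1.60, and the mouse genome holds near-identical copies of this gene as well.

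**Figure D2:**
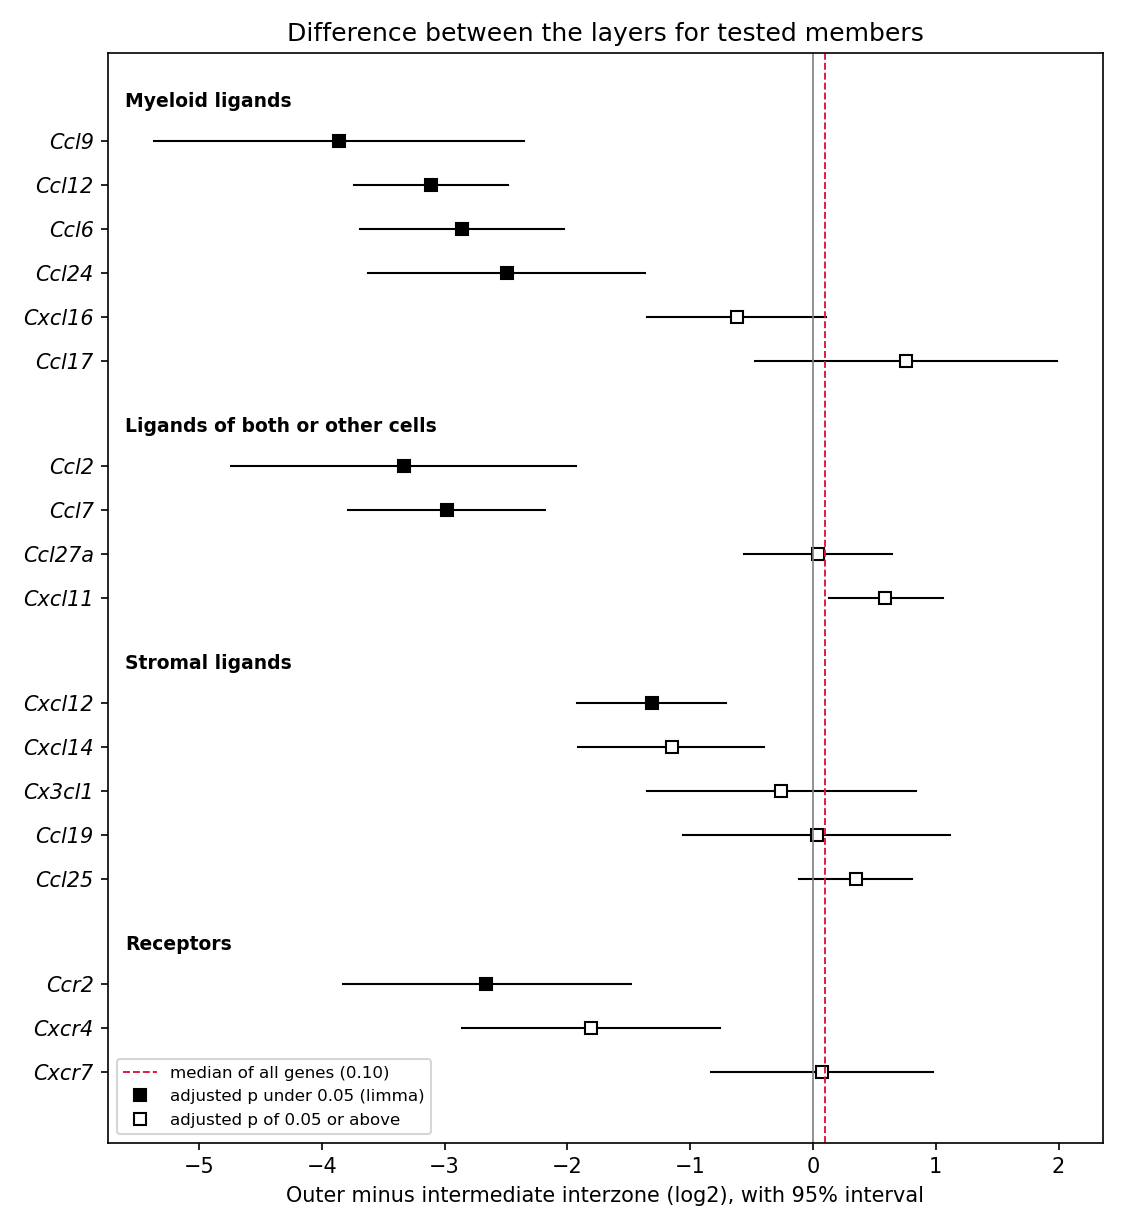
Difference of the tested members described here (log2, outer minus intermediate), each with its 95% interval from limma, ordered within role groups; filled squares were called at adjusted p 0.05, and the dashed line is the median of all genes, 0.10. The called members run from -3.86 for Ccl9 to -1.31 for Cxcl12, and the intervals of Cxcl16, Ccl17, Ccl27a, Cx3cl1, Ccl19, Ccl25 and Cxcr7 include 0.

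Of the 17 receptors, 4 were tested and 1 (Ccr2) was called lower, against 2.48% of all genes. It was tested through the intermediate arrays alone, where 8.40% of all such genes were called lower. Ccr2, the receptor through which monocytes respond to Ccl2, Ccl7 and Ccl12, had levels of -2.05, -2.96 and -1.81 on the intermediate and -4.03, -4.92 and -5.84 on the outer arrays. It was well above background on all 3 intermediate arrays and on 0 of 3 outer arrays, so the outer level is only a bound. The means were -2.27 ± 0.61 and -4.93 ± 0.90 (fitted difference -2.66, SE 0.50, limma adjusted p = 0.0378), and Ccr2 was at least 2.16-fold lower in the outer interzone by the bound described for Ccl9. The call was lost with a slide block (-1.76, adjusted p = 0.0953), without intermediate replicate 1 (-2.55, 0.118), 2 (adjusted p = 0.056) or 3 (-2.42, 0.144), and without outer replicate 2 (-2.66, 0.054) or outer replicate 3 (-2.20, 0.0899), but not without outer replicate 1.

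Cxcr4, the signalling receptor of Cxcl12, had levels of -2.18, -1.02 and -1.10 on the intermediate and -3.99, -2.57 and -3.18 on the outer arrays. No outer value reached an intermediate one, and outer replicate 1 was not well above background. The difference was -1.81 (SE 0.44, 95% interval -2.86 to -0.76, limma adjusted p = 0.0767), which did not pass the threshold. It passed with the authors' deposited values (-2.20, limma adjusted p = 0.0318) and with each array scaled to its median (-2.25, 0.0282). It was called with the replicate number as a block (adjusted p = 0.0242), with slide as a block (-2.55, 0.0368) and without outer replicate 2 (-2.15, 0.0429).

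Cxcr7 (now Ackr3), the atypical receptor that binds and clears Cxcl12 and Cxcl11, was the one receptor measured on all 6 arrays. Its levels were 2.70, 3.29 and 2.53 on the intermediate and 2.23, 3.64 and 2.88 on the outer arrays, and the groups overlapped. Means of 2.84 ± 0.40 and 2.92 ± 0.70 gave a difference of 0.07 (95% interval -0.83 to 0.98, limma adjusted p = 0.931).

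Ligands and receptors that belong together can be read side by side. Of the Ccr2 ligands with a tested probe, Ccl2, Ccl7 and Ccl12 were all called lower in the outer interzone, as was Ccr2. For the Cxcl12 pair, the ligand was called lower (-1.31), Cxcr4 had a difference of -1.81 without a call, and Cxcr7 had 0.07. Cx3cl1 was not called (-0.26), while Cx3cr1, its receptor on macrophages, fell from 3.83 ± 0.62 to -0.10 ± 1.63 (limma adjusted p = 0.0437, well above background on 2 of 3 outer arrays). Cx3cr1 lies outside the family as the rule takes it, and it is named here after its value was seen. For Ccl9 and Ccl6 the receptor Ccr1 was well above background on 1 array, for Cxcl16 the receptor Cxcr6 on none, and for Ccl24 the receptor Ccr3 on none. Likewise Ccr4, Ccr9 and Ccr10, which bind Ccl17, Ccl25 and Ccl27a, were well above background on no array.

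**Figure D3:**
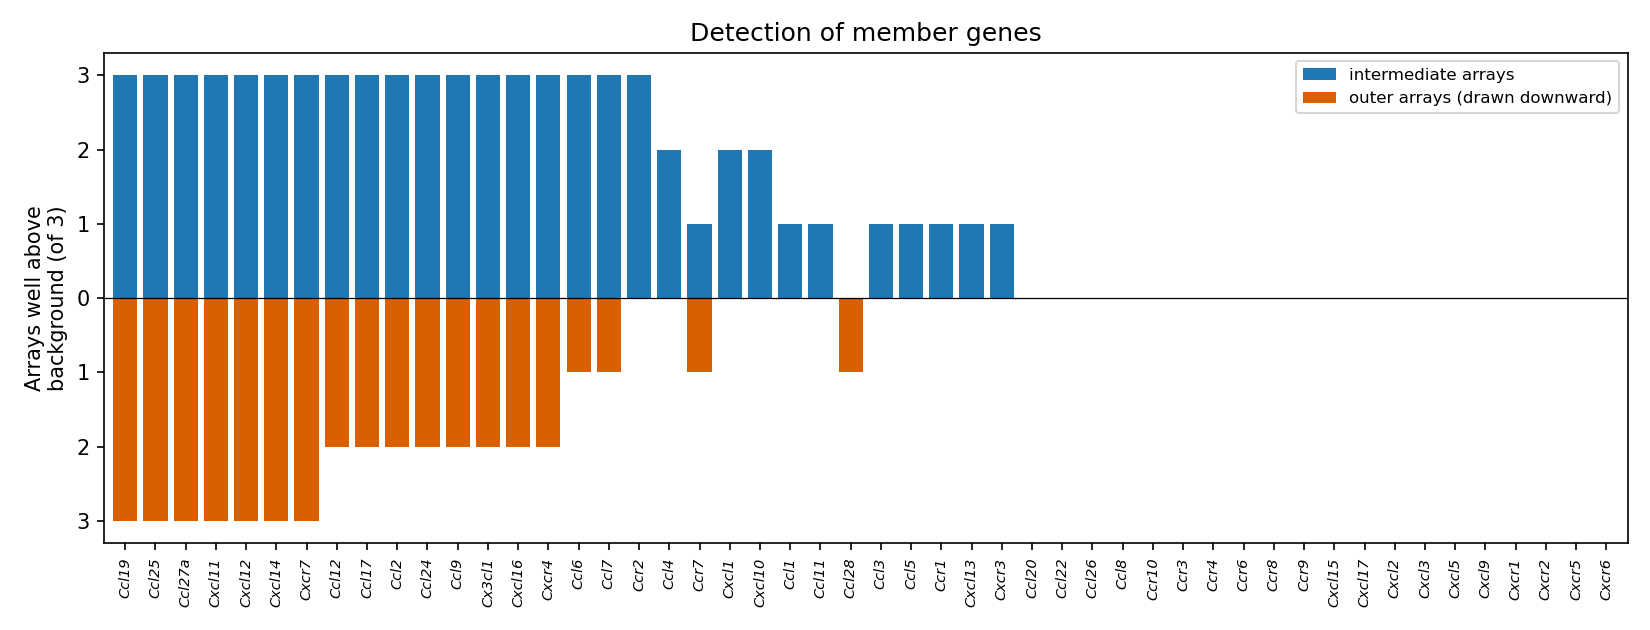
Number of arrays, of 3 intermediate and 3 outer, on which each family member described here was well above background. Bars for outer arrays point down; 20 members have 0 in both groups, and 7 have 3 in both.

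In all, 32 members were not tested, 20 of them well above background on no array. Those 20 were the ligands Ccl8, Ccl20, Ccl22, Ccl26, Cxcl2, Cxcl3, Cxcl5, Cxcl9, Cxcl15 and Cxcl17 and the receptors Ccr3, Ccr4, Ccr6, Ccr8, Ccr9, Ccr10, Cxcr1, Cxcr2, Cxcr5 and Cxcr6. They include the neutrophil attractants Cxcl2, Cxcl3 and Cxcl5 and their receptors Cxcr1 and Cxcr2. The other 12 were well above background on 1 or 2 arrays. In 10 of the 12 these were intermediate arrays only, with Ccl4, Cxcl1 and Cxcl10 on 2 of them and Ccl1, Ccl3, Ccl5, Ccl11, Ccr1, Cxcl13 and Cxcr3 on 1. Ccl28, an epithelial ligand, was so on 1 outer array only, and Ccr7 on 1 of each group. With 13 of 17 receptors untested, the array gives no level for most of the receptors that the tested ligands bind, and a signal near background does not show that a transcript is absent.

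Of the 51 members, 14 have probes on chromosome 11, and 6 of the 14 were tested. All 6 were tested through the intermediate arrays alone. Of these 6, 5 were called lower, against 8.40% of all genes that entered in the same way, and 1 (Cxcl16) was not called. The other 3 called members lie elsewhere. The 5 are in a pair of gene clusters that hold many CC ligands. One cluster holds Ccl2 (chr11:81850650-81850709, mm9, as are all probe positions here), Ccl7 (chr11:81860656-81860715) and Ccl12 (chr11:81916764-81916823), and the other Ccl9 (chr11:83388223-83388282) and Ccl6 (chr11:83401997-83402056). Ccl11, Ccl8 and Ccl1 in the first and Ccl3, Ccl4 and Ccl5 in the second were not tested. The probes of Ccr2 (chr9:124022948-124023007), Ccl24 (chr5:136046667-136046726), Cxcl12 (chr6:117131227-117131286), Cxcl14 (chr13:56390078-56390137), Cxcr4 (chr1:130485079-130485138) and Cxcr7 (chr1:92111803-92111862) lie elsewhere. Exon and UTR annotation of the probes was not used here.

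Promoter sequences of RefSeq (GRCm38.p6, from 250 bases before to 50 after the gene's start) were at hand for 36 of the 51 members, including 5 of the 8 called ones. They are shown because these genes were called together. Capitals mark a TATAAA on the strand of the gene or a TGANTCA on either strand. The latter is an AP-1-like pattern in which any base may stand at N, so a match need not be an AP-1 site. The match marked in Ccl9 is TGAATCA. The windows are chr11:82101595-82101894 (plus strand) for Ccl12, chr11:83578587-83578886 (minus) for Ccl9, chr11:83593038-83593337 (minus) for Ccl6, chr9:124101933-124102232 (plus) for Ccr2 and chr6:117168285-117168584 (plus) for Cxcl12.
Ccl12: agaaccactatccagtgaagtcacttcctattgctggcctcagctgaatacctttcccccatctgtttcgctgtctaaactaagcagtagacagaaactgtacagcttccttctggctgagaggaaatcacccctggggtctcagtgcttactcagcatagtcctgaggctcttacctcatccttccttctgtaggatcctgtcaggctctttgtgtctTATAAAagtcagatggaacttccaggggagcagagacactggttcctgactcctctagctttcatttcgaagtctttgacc
Ccl9: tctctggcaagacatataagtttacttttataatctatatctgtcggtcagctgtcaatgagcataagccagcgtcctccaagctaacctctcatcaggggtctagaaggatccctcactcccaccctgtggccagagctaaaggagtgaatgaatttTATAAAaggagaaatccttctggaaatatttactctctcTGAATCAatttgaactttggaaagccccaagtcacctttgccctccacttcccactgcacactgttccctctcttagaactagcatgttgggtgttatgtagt
Ccl6: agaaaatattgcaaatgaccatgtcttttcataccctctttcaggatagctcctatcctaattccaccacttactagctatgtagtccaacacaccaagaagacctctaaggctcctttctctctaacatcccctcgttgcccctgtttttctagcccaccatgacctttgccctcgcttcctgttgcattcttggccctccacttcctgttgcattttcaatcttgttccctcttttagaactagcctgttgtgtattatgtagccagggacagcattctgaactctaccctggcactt
Ccr2: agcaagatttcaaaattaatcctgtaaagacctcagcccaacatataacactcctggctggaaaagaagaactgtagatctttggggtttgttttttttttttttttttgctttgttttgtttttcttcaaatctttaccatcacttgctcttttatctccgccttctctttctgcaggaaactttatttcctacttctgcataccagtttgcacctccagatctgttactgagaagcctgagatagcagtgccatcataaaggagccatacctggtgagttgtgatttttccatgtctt
Cxcl12: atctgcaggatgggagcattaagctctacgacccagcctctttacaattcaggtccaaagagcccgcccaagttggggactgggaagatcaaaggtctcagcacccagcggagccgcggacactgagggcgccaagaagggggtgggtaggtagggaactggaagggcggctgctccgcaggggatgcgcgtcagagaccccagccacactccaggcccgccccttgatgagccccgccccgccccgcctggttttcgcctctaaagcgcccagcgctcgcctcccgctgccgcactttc

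A TATAAA was found in 2 of these 5 windows, beginning at position -31 from the start in Ccl12 and at -92 in Ccl9, against 8.32% of all 32851 RefSeq windows of the same length. It was found in 4 of 11 windows of tested members that were not called, among them Cxcr4 at -30, and in 5 of 24 windows of untested members. TGANTCA, searched on both strands, was in 1 of the 5 (Ccl9, beginning at -53), in 1 of the 11 and in 5 of the 24, against 7.81% of all. The NF-kB-like core GGGANTTTC, on both strands, was in 0 of 5, 0 of 11 and 6 of 24, against 1.11% of all, and those 6 include the untested Cxcl1, Cxcl2 and Cxcl3. TTGCNNAA, the core of a C/EBP-like site, was in 0 of 5, 3 of 11 and 1 of 24, against 10.8% of all, and GAGGAAGT, a PU.1-like core, in 0 of 5, 0 of 11 and 1 of 24, against 3.2% of all, both searched on both strands. A match is a description of letters, and none of the motifs contains another.

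The neighbours Ccl9 and Ccl6 shared a stretch of 40 bases with 36 identical, beginning at +10 in the window of Ccl9 and at -25 in that of Ccl6. The best stretches of the other pairs among the 5 had 21 to 23 identical bases of 40. The window of Cxcl12 held 20 CG dinucleotides, above the median of 7 over all windows, while those of Ccl12, Ccl9 and Ccl6 held 2 each and that of Ccr2 held 1.

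**Figure D4:**
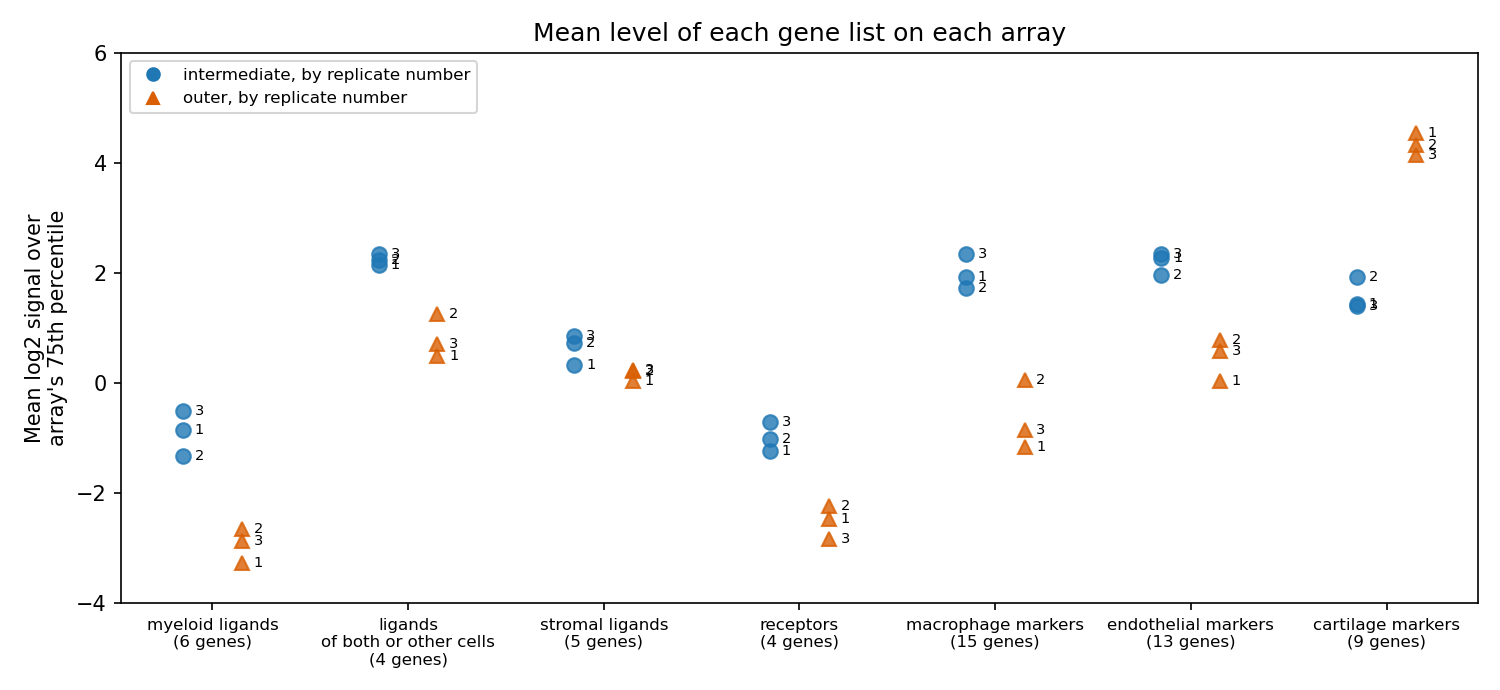
Mean log2 level per array of the tested members of each role group and of the macrophage, endothelial and cartilage marker lists, one point per array, numbered by replicate. The 3 outer points lie below all intermediate points for every role group and for the macrophage and endothelial markers. Those of the cartilage markers lie above.

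Most markers of macrophages and endothelium were lower in the outer interzone, as the called chemokines were. Averaged over tested genes, the myeloid ligands stood at -0.86, -1.33 and -0.51 on the intermediate and -3.27, -2.66 and -2.87 on the outer arrays, and the macrophage markers at 1.93, 1.72 and 2.35 against -1.17, 0.05 and -0.86. Of 15 tested macrophage markers 12 were called lower in the outer interzone, against 2.48% of all genes. None was called higher (0 at unadjusted p under 0.05), against 1.57%, and the median was -3.01. Some of the 12, such as Lyz2, were tested through the intermediate arrays alone, where 8.40% of all such genes were called lower. Others, such as C1qb, were well above background on all arrays, where that share was 1.27%. The 4 with the lowest adjusted p were C1qb (-3.01, 0.01), Lyz2 (-3.52, 0.015), Tyrobp (-3.27, 0.0159) and Cd68 (-2.32, 0.0169), genes of complement, lysozyme, a signalling adaptor and a lysosomal protein of macrophages. Lyz2 was well above background on 0 of 3 outer arrays, so its outer level is only a bound and -3.52 is a fitted value. Ptprc (-1.45), Mertk (-0.71) and Itgam (0.76), named after their values were seen, were not called, and Cd163 was well above background on no array. Itgam went the other way, from 5.08 ± 0.74 in intermediate to 5.84 ± 1.03 in outer samples. It had the highest mean level of the list in both layers, so it weighs heavily in the summed level. The summed linear level of the list ranged from 92.1 to 147 on the intermediate and from 52.3 to 132 on the outer arrays. The part of macrophage content in the differences of Ccl9, Ccl12, Ccl6, Ccl24, Ccl2, Ccl7 and Ccr2 was not tested.

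Endothelial markers are given beside Cxcl12, Cxcr4 and Cx3cl1, which vessels express. Of 13 tested, 9 were called lower, against 2.48% of all genes, and 1 (Erg, also an interzone gene) higher, against 1.57%. At unadjusted p under 0.05, 11 were lower and 2 higher. Kdr, named after its value was seen, stood at 4.55 ± 0.29 in intermediate and 5.36 ± 0.64 in outer samples. Its difference of 0.82 was not called (limma adjusted p = 0.231). The median of the list was -1.96, and its summed level was 117 to 143 on the intermediate and 64.1 to 82.4 on the outer arrays. The 4 with the lowest adjusted p were Emcn (-2.93), Tek (-2.92), Pecam1 (-1.90) and Egfl7 (-1.79). Emcn was well above background on 2 of 3 outer arrays and Tek on 1, so both were tested through the intermediate arrays alone. Of all genes tested in that way, 8.40% were called lower. The stromal ligands averaged 0.33, 0.73 and 0.85 on the intermediate and 0.04, 0.22 and 0.24 on the outer arrays, and the endothelial markers 2.27, 1.97 and 2.35 against 0.03, 0.79 and 0.59. The part of vessel content in the difference of Cxcl12 was not tested.

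Few markers of other leukocytes could be tested. Of 11 lymphocyte markers 4 were tested, with 1 lower (Cd79b) and 0 higher (2 at unadjusted p under 0.05), and Cd3d, Cd3g, Cd2 and Ms4a1 were well above background on no array. Of 9 neutrophil markers 4 were tested, with 0 called by limma (2 lower and 1 higher at unadjusted p under 0.05), and Ly6g, Ngp and Mmp8 were above on none. Of 8 mast cell markers 2 were tested with 0 called (1 lower at unadjusted p under 0.05). Limma called 0 of 6 erythroid and 0 of 6 muscle markers (0 and 0 at unadjusted p under 0.05). Their summed levels spanned wide ranges within a group, 2080 to 3020 on the intermediate and 371 to 2980 on the outer arrays for the erythroid list.

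Other genes of the chemokine pathway were measured too. Of 38 on the list, 24 were tested, and 7 were called lower in the outer interzone, against 2.48% of all genes. It was 0 for higher (1 at unadjusted p under 0.05), against 1.57%, and the median was -0.25. The 4 with the lowest adjusted p were Rarres2, which encodes the attractant chemerin (-0.92, 0.0285), Pf4, the CXC ligand of platelets (-3.33, 0.0387), Rgs2, a regulator of G protein signalling (-1.54, 0.0391), and Rac2, the blood cell Rac GTPase (-3.27, 0.0421). Pf4 fell from 4.48 ± 0.46 to 1.15 ± 1.32 and was well above background on all 6 arrays. Cx3cr1, Vav1 and Rgs10 were the other 3. Rac2, Cx3cr1 and Vav1 were each well above background on 2 of 3 outer arrays, so they were tested through the intermediate arrays alone. Of all genes tested in that way, 8.40% were called lower. Ackr4, Ccrl2, Xcl1, Xcr1, Rgs1 and Plcb2 were well above background on no array.

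**Figure D5:**
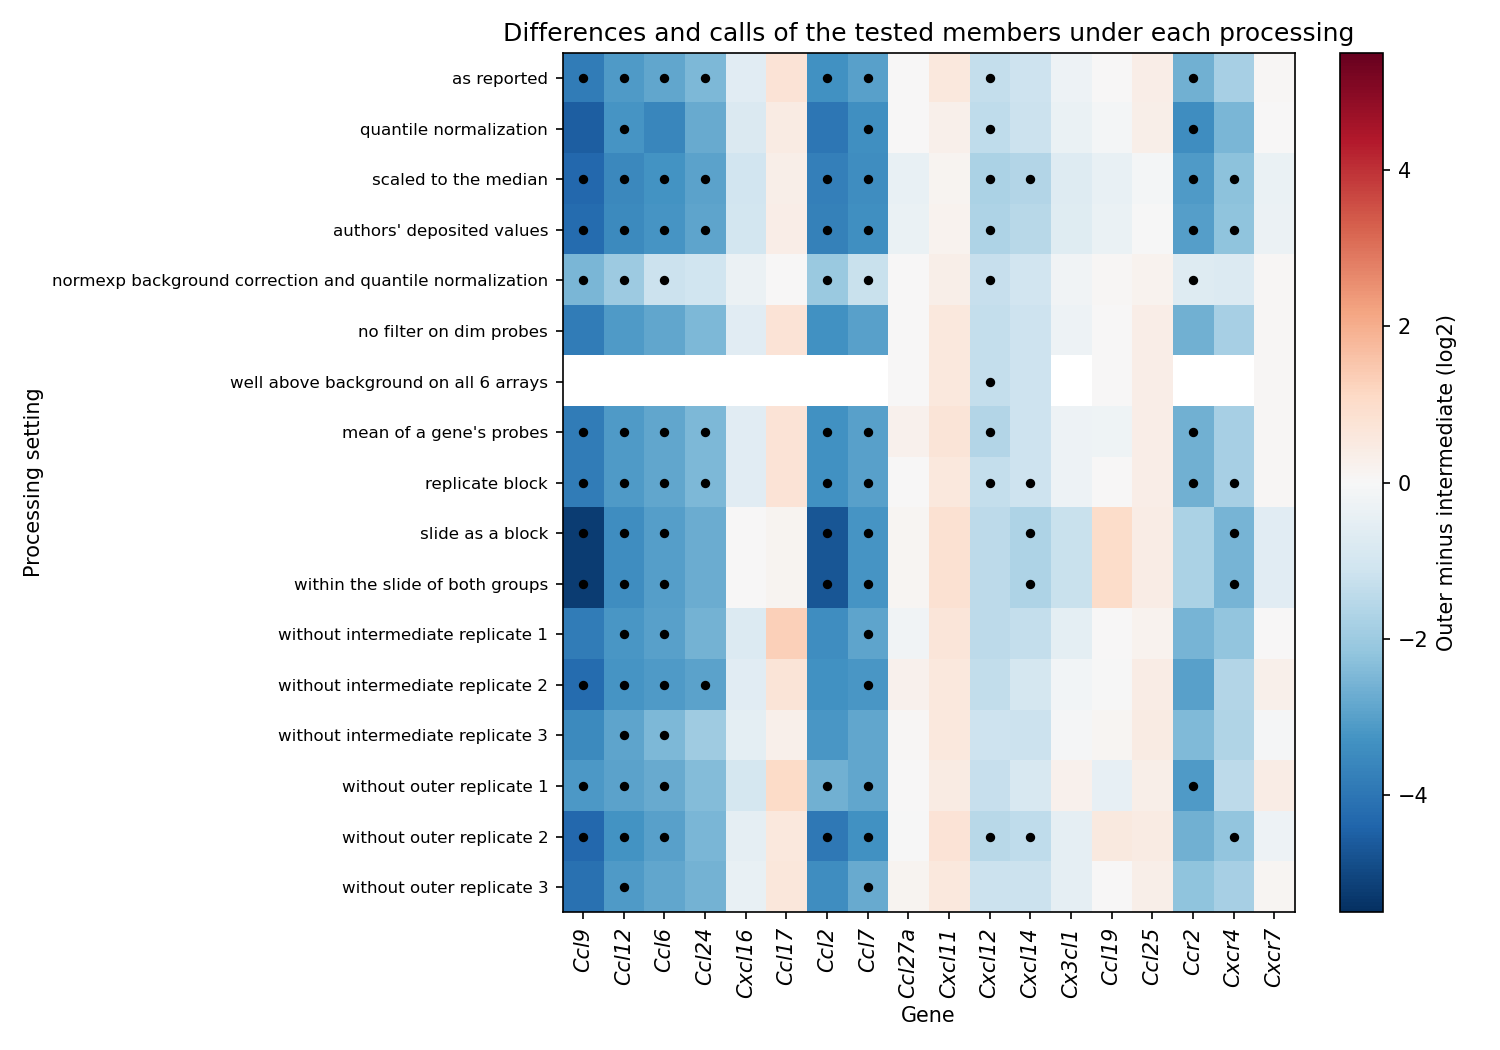
Difference of the tested members described here (columns) under each processing setting (rows), as colour (log2, outer minus intermediate; blue is lower in the outer interzone), with a black dot where limma called it at adjusted p 0.05 and white where the setting gave no value. Ccl12 carries a dot in most settings, and without outer replicate 3 only 2 members do.

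The 8 called members, and Cxcl14 and Cxcr4, had negative differences in every alternative that gave a value, and the size of their differences depended on the processing. With normexp background correction and quantile normalization together, the difference of Ccl9 was -2.50 in place of -3.86 and that of Ccl6 -1.17 in place of -2.86. That of Ccl7 was -1.24 in place of -2.98 and that of Ccr2 -0.69 in place of -2.66. Cxcl12, well above background on all arrays, gave -1.28 in place of -1.31. In log2 the fold bounds were -3.12 for Ccl9, -2.04 for Ccl6, -2.16 for Ccl7 and -1.11 for Ccr2, so these bounds did not hold under that processing. Those of Ccl12, Ccl2 and Ccl24 did not hold there either. With quantile normalization alone the calls of Ccl2 (-3.99, adjusted p = 0.117), Ccl9 (-4.55, 0.0958), Ccl24 (-2.79, 0.0557) and Ccl6 (-3.58, 0.0508) were lost although each difference was larger. Ccl24 was also lost with normexp and quantile normalization (0.0662), and without a filter all 8 were lost (0.0895 to 0.207). With a slide block Ccl9 had -5.24 and Ccl2 -4.71, both called, and Cx3cl1 -1.24, Ccl19 1.01 and Cxcr7 -0.61, none of them called. Scaling each array to its median instead moved the median of all genes to -0.34 and the calls over all genes to 148 higher and 995 lower, and 11 members were then called. Relative to that median the direction of the called members is the same. With the replicate number as a block, 10 members were called, the same medians holding by construction.

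Fewer members were called in most fits with 1 array left out, as were fewer genes in all. Without outer replicate 3, 2 members and 90 of all genes were called. Without intermediate replicate 3, 2 members and 66 genes were called, without intermediate replicate 1, 3 members and 137 genes, and without intermediate replicate 2, 5 members and 381 genes. Ccl12 was called in every fit that left out an array. Ccl2 was not called without intermediate replicate 1, 2 or 3 or outer replicate 3 (-3.43 to -3.22, adjusted p from 0.0922 to 0.131), nor Ccl9 without intermediate replicate 1 (-3.83, adjusted p = 0.087), intermediate replicate 3 (-3.51, 0.109) or outer replicate 3 (-4.09, 0.0771). Ccl6 missed the threshold without outer replicate 3 (-2.84, 0.0645), and Ccl7 without intermediate replicate 3 (-2.87, 0.0579).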

How the data were processed

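Total RNA of 6 samples was amplified, labelled with Cy3 and hybridised to one-colour Agilent arrays, per the labels' protocols. Per the file headers, the deposited scanner files, written by Feature Extraction 10.7.3.1, hold a processed intensity for each spot, with the background subtracted and array-wide trends removed, and a flag for spots well above background. Partek 6.11.0321 is named in the submitters' processing notes with no role. In the authors' deposited table, intensities equal the processed signal divided by a constant per array (spread at most 0.000785%), which brings each column's median to 1. It is on a linear scale and not centred per gene. Probe positions are those of the files (mm9). Its value columns were mapped to samples through the scanner file names in the labels.

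Of 59305 non-control spots, those of a probe were averaged on the log2 scale without outlier flags, giving 55681 probes, of which 9 lacked a value somewhere and were left out. A later RefSeq table matched 26760 of the 28388 probes that carry a RefSeq accession, was used for names of genes outside the family, and changed 2878 symbols. The log2 processed signal minus the array's 75th percentile was tested two-sided and with no block by lmFit and eBayes (limma 3.58.1, R 4.3.3) on the brightest tested probe of each gene. Benjamini-Hochberg adjustment ran over 18003 genes. Where a probe was not well above background on an outer array, the fold is given as a bound that holds for this processing only. Summed levels of marker lists are on the linear scale. The method was also run on simulated arrays with independent noise. These left out the slides, the pairing and the filter on signal, so they are not used here in favour of the calls. The 3 arrays per group limit the precision.

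Every tested member is named except 1, which is not reported here but stays in the counts, the medians and the means per array, untested ones by the arrays above background, and of each other list at most the 4 genes with the lowest adjusted p, apart from genes said to be named after their values were seen. The members and lists were chosen with earlier results of these data known. Samples of the same replicate number deviated together from their group means across genes. The r was 0.563, 0.48 and 0.372 for replicates 1, 2 and 3, and at most 0.114 between different numbers. The numbers come from the labels. The differences and p-values reported above come from the fit with no block and ignore this pairing. Only the alternative with the replicate number as a block uses it. Alternatives were other normalizations and background correction, filters, the mean of a gene's probes, replicate or slide as a block, slide 1 alone, and leaving out each array. With slide as a block or slide 1 alone, the difference rests on outer replicate 1, and that lone array is taken to vary as the intermediate ones do.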

Additional observations from a re-analysis of the deposited data

How the results depend on the processing

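In the counts and medians of this family, 0 members were called higher in the outer interzone by limma under any alternative. Quantile normalization gave 446 called genes and 5 called members. Scaling to the median gave 1143 genes, 11 members and medians of -1.76 for all tested members and -0.70 for stromal ligands. The authors' deposited values gave 1095 genes (158 higher and 937 lower), 10 members and medians of -1.71 and -0.65. Normexp background correction with quantile normalization gave medians of -0.69 for the members and -1.13 for myeloid ligands. Without a filter, limma called 0 genes and 0 members (4268 genes and 12 members at unadjusted p under 0.05), and the medians over 51 members were 0.27 for all, -0.03 for stromal and -1.01 for myeloid ligands, which are then mostly signals at background. Requiring signal on all 6 arrays gave 460 genes and 1 of 7 members, with medians of 0.04 and, for stromal ligands, -0.56, and no myeloid ligand was left. The replicate block gave 1636 genes (836 higher and 800 lower) and 10 members. The slide block gave 1215 genes and slide 1 alone 1314, each with 7 members and a stromal median of -1.24. Without each array in turn, 66 to 1111 genes and 2 to 8 members were called, and the medians ran from -1.52 to -1.18 for the members, -0.55 to -0.05 for stromal and -3.03 to -2.20 for myeloid ligands. In each alternative fit that gave a value, Ccl27a, Cxcr7, Ccl19, Ccl25, Cx3cl1 and Cxcl16 were not called, and their sign changed in some. The limit is signal over background: on outer replicate 1, 7 of the 19 tested members were well above it.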
